A study of Mus musculus with 14 samples.

Results

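Ctla2a, Vgll3 and Bdnf are 3 protein-coding genes, out of 40481 genes in the bulk table and 32285 in the nuclei matrices. They were selected on their high ratio of knockout to wild type in smooth muscle nuclei in an earlier reading of these data. The nuclei values by which they were chosen are therefore given as a description, with no test, and the bulk libraries, which did not choose them, carry the tests. The muscularis, the muscle coat of the gut wall, was taken from C57BL/6 mice with the genotype labels Carmn iKO (KO below) and WT mTmG (WT below). Carmn encodes a long non-coding RNA made in smooth muscle, and the study asked about its part in the contraction of visceral smooth muscle. Bulk RNA-seq covered colon and jejunum with 3 KO and 3 WT libraries each, which carry the tags m1, t1, t4, t6 or t7 as names, and colon nuclei were profiled in 1 library per genotype. The tissue was separated by hand and flash frozen. The sources used here do not give the promoter that drives the deletion, its timing or the age of the mice, nor whether the mTmG reporter of the WT mice is also in the KO mice.

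Ctla2a encodes a small protein related to the propeptide of cysteine cathepsins, which it can inhibit, and Ctla2b is its neighbouring relative. Vgll3 encodes a vestigial-like cofactor that binds the TEAD transcription factors, the DNA-binding partners of YAP and TAZ (Yap1 and Wwtr1) in the Hippo pathway, where the Lats and Stk kinases restrain both coactivators. Bdnf encodes brain-derived neurotrophic factor, a secreted neurotrophin that is cleaved from a precursor by furin-type proteases and signals through the receptor tyrosine kinase TrkB (Ntrk2) and the p75 receptor (Ngfr). In the gut, neurotrophins are known from enteric neurons, glia and smooth muscle.

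On GRCm38 (RefSeq annotation), Ctla2a lies at chr13:60934155-60936625 on the minus strand, Vgll3 at chr16:65815189-65866368 on the plus strand and Bdnf at chr2:109674700-109727043 on the plus strand. Ctla2b lies close by at chr13:60895351-60897934. The 250 bases upstream of a start site are printed for Ctla2a, for Vgll3 and for 2 of the 7 Bdnf start sites. Each of these windows adjoins or holds an accessible region described further on or a motif of interest. The Bdnf window of the start at chr2:109722921 also holds a motif and is not printed. Capitals mark GGAATG or its reverse complement CATTCC, the core of the TEAD site, and TGACGT or its reverse complement ACGTCA, part of the cAMP response element that CREB-type factors bind. Both strands were searched, and neither motif overlaps the other in these windows. The sequences are from RefSeq (GRCm38.p6), 5′ to 3′ on the strand of the gene.
Ctla2a, chr13:60936626-60936875, minus strand: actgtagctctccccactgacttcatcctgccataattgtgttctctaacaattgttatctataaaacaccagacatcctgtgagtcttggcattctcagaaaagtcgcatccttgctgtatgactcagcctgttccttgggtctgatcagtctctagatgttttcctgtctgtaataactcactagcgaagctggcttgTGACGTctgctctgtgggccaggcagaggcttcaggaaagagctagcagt
Vgll3, chr16:65814939-65815188, plus strand: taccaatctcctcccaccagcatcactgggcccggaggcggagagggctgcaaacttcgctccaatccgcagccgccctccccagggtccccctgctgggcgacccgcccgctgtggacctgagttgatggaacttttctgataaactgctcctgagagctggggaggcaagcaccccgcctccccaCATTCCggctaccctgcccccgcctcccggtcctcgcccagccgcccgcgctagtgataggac
Bdnf, chr2:109676782-109677031, plus strand: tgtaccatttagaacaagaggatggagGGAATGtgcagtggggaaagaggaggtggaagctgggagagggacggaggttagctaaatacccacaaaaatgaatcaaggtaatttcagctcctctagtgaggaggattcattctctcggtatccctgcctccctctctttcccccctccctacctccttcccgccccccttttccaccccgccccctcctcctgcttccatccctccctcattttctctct
Bdnf, chr2:109692186-109692435, plus strand: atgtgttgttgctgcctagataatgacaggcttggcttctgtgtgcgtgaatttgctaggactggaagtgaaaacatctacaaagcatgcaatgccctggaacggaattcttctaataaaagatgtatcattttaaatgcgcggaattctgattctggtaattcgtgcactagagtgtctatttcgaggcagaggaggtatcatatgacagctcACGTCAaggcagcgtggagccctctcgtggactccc

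The Vgll3 window held 1 TEAD core, which began 63 bases before the start site, and no TGACGT. The Ctla2a window held 1 TGACGT, 50 bases before the start, and no TEAD core. Of the 7 Bdnf windows, 1 held TGACGT, 36 bases before the start at chr2:109692436, and 2 held a TEAD core, 223 bases before the start at chr2:109677032 and 77 bases before the start at chr2:109722921. Over 32817 windows of the same length, 12.6% held the TEAD core and 6.46% held TGACGT, so such matches are common. The Ctla2a and Ctla2b windows were 91.7% identical over 228 aligned bases, and the Ctla2b window held its own TGACGT 72 bases before the start.

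The bulk libraries held 24254905 to 44315104 counts. Carmn, the targeted gene, was not lower in the bulk libraries labelled KO: it stood at 304 to 718 CPM (counts scaled to a common library total) in KO colon against 171 to 351 in WT colon, and at 817 to 996 in KO jejunum against 206 to 326 in WT jejunum. In colon nuclei the direction was the opposite, with 565 Carmn CPM in KO and 1632 in WT in smooth muscle-like cluster 1, described further on. KO and WT therefore stand for the labels throughout. On principal components of log2 CPM, KO colon t4 had the lowest first score (-114.2, next -62.9) and KO jejunum m1 the lowest second score (-109.7, next -40.4), and results are given with and without both. The mitochondrial share of counts was lower in KO in both tissues, 0.621% to 0.754% against 1.55% to 2.28% in colon and 1.17% to 2.07% against 2.71% to 3.59% in jejunum, and its part in the results was not tested. All 10 smooth muscle markers had counts in every bulk library. The smooth muscle markers summed to 34795 (t4) to 47184 CPM in KO colon, below the 52761 to 76756 CPM of every WT colon library. In jejunum they summed to 93527 CPM in KO m1 and to 48681 to 53508 CPM in the other libraries.

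Ctla2a was higher in every KO colon library than in every WT colon library, but its size rested on 1 library. In KO colon it stood at 19.8 CPM (m1), 317 CPM (t4) and 37.0 CPM (t6), and in WT colon at 7.17 (t1), 5.99 (t6) and 5.50 CPM (t7). KO colon t4 stood far above the other KO libraries, whereas the WT libraries differed by 1.30-fold. The means were 125 ± 167 CPM in KO colon and 6.22 ± 0.857 CPM in WT colon (SD, n = 3 each). The log2 fold change was 4.32 with a standard error of 1.48, and it did not pass the threshold of 0.05 (adjusted p = 0.222, edgeR quasi-likelihood test, Benjamini-Hochberg over 20886 genes). The two-sided exact permutation p was 0.1, the smallest that 3 libraries against 3 can give. Groups entirely above, without overlap, were found in 8.79% of the genes in this comparison.

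In jejunum Ctla2a stood at 308 CPM in KO m1, 7.64 CPM in KO t1 and 14.2 CPM in KO t4. The WT jejunum libraries held 9.10 CPM (t1), 4.34 CPM (t6) and 2.29 CPM (t7). KO m1 was far above all others, and KO t1 lay below WT t1, so the groups overlapped. The log2 fold change was 4.39 with a standard error of 1.49 (edgeR adjusted p = 0.244), and the exact permutation p was 0.2. Without KO colon t4 and KO jejunum m1 the log2 fold change was 2.21 with a standard error of 0.519 in colon (edgeR adjusted p = 0.0771) and 1.04 with a standard error of 0.518 in jejunum (edgeR adjusted p = 0.45). DESeq2 on the same counts called Ctla2a in colon (adjusted p = 0.0208) and in jejunum (adjusted p = 0.0217). It called 4.6% of all 20886 genes in colon and 3.85% in jejunum, against 0.388% and 0.215% with edgeR.

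Bdnf showed the same order of libraries within the KO groups. In KO colon it stood at 10.6 CPM (m1), 43.9 CPM (t4) and 13.3 CPM (t6), and in WT colon at 7.32 (t1), 3.16 (t6) and 13.1 CPM (t7). WT t7 lay between the KO libraries, so the groups overlapped. The means were 22.6 ± 18.5 CPM in KO colon and 7.88 ± 5.02 CPM in WT colon (SD, n = 3 each). The log2 fold change in colon was 1.52 with a standard error of 0.865 (edgeR adjusted p = 0.461), and it was 0.62 without KO colon t4 and KO jejunum m1 (edgeR adjusted p = 0.544). In jejunum Bdnf was low, at 18.8 CPM (m1), 1.79 CPM (t1) and 3.06 CPM (t4) in KO and at 1.22 (t1), 0.874 (t6) and 0.746 CPM (t7) in WT. Every KO library lay above every WT library there, which 11% of all genes did. The log2 fold change in jejunum was 3.05 with a standard error of 0.942 (edgeR adjusted p = 0.207), and it was 1.34 without KO colon t4 and KO jejunum m1 (edgeR adjusted p = 0.301). DESeq2 called Bdnf in jejunum (adjusted p = 0.0085), as it did 3.85% of all genes there, and not in colon (adjusted p = 0.295).

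Vgll3 did not separate KO from WT in either tissue. In KO colon it stood at 23.4 CPM (m1), 53.8 CPM (t4) and 26.6 CPM (t6), and in WT colon at 29.0 (t1), 22.3 (t6) and 46.6 CPM (t7). In jejunum it stood at 25.5 CPM (m1), 10.8 CPM (t1) and 12.1 CPM (t4) in KO and at 15.5 (t1), 12.8 (t6) and 15.8 CPM (t7) in WT. The highest value in each tissue was again KO colon t4 and KO jejunum m1, and the remaining KO libraries lay within or below the WT range. The log2 fold change was 0.08 with a standard error of 0.4 in colon (edgeR adjusted p = 0.957) and 0.13 with a standard error of 0.402 in jejunum (edgeR adjusted p = 0.923). Without the highest KO library of each tissue both values turned negative, to -0.37 and -0.38.

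**Figure D1:**
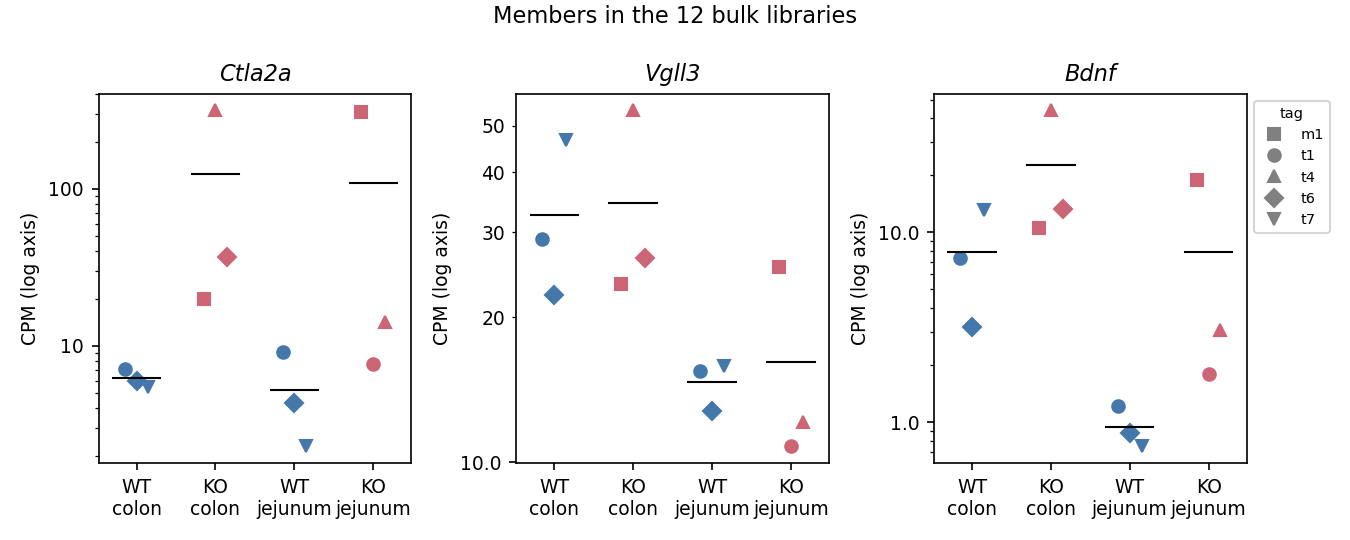
CPM of Ctla2a, Vgll3 and Bdnf in the 12 bulk libraries (log axes), by group, with a symbol for each tag and a horizontal line at the group mean. KO colon t4 and KO jejunum m1 hold the highest value of each gene in their tissue, for Ctla2a 317 and 308 CPM.

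None of the 3 genes passed the edgeR threshold in colon or in jejunum, where 0.388% and 0.215% of all 20886 genes passed in either direction. Nor did the change differ between the tissues by test: the colon change minus the jejunum change was -0.07 for Ctla2a (edgeR adjusted p = 0.999), -0.05 for Vgll3 (adjusted p = 0.995) and -1.53 for Bdnf (adjusted p = 0.94). No gene passed that test with edgeR, and 869 had an unadjusted p below 0.05 (4.16%). In WT libraries Vgll3 and Bdnf were lower in jejunum than in colon in every library, by 1.15 (standard error 0.406, edgeR adjusted p = 0.222) and 3.06 (standard error 0.941, adjusted p = 0.165) on the log2 scale, neither past the threshold that 1.56% of genes passed. Such WT groups, with jejunum entirely below colon, were found for 11.2% of genes. Ctla2a had overlapping WT values in the tissues (log2 fold change -0.25, edgeR adjusted p = 0.978).

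Fibroblast markers moved with the same libraries. The 8 fibroblast markers, all detected in every library, summed to 12897 CPM in KO colon t4 against 3121 and 2701 CPM in KO colon m1 and t6, and to 7531 CPM in KO jejunum m1 against 3376 and 2889 CPM in t1 and t4. The WT libraries held 3604 to 5988 CPM in colon and 3056 to 3660 CPM in jejunum. The 8 macrophage markers were also highest in both libraries, at 1156 CPM in KO colon t4 and 1438 CPM in KO jejunum m1, against 162 to 806 CPM in the others. The smooth muscle markers were lowest in KO colon t4 and highest in KO jejunum m1, so they moved in opposite directions in these libraries. The part of these 3 lists in the bulk values of the 3 genes was not tested. In bulk tissue, a different number of cells of a type and a different amount of RNA per cell cannot be told apart.

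**Figure D2:**
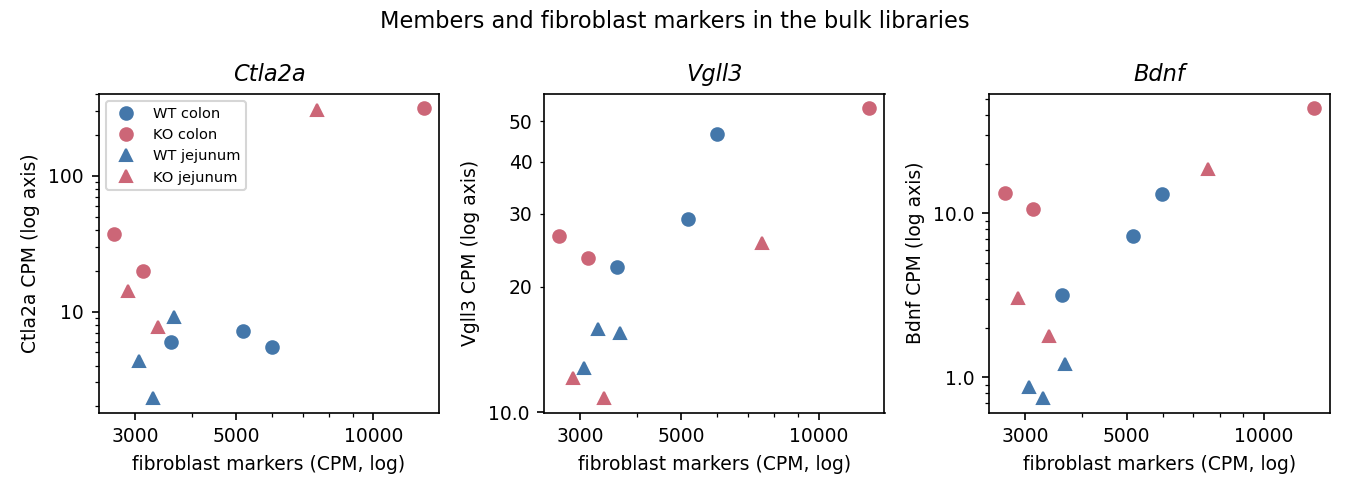
CPM of each gene (vertical, log axis) against the summed CPM of 8 fibroblast markers (horizontal, log axis), 1 point per bulk library. KO colon t4 (12897 CPM of fibroblast markers) and KO jejunum m1 (7531 CPM) lie farthest to the right.

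Over the 12 bulk libraries the log2 CPM of Vgll3 and Bdnf had a Pearson r of 0.845, those of Ctla2a and Bdnf 0.787 and those of Ctla2a and Vgll3 0.491. Without the pair of libraries farthest from the median of the first gene these were 0.782, 0.641 and 0.145. These correlations describe libraries that share tissue and genotype. Among 14281 genes with a mean log2 CPM of at least 1, the genes most like Ctla2a were Ctla2b (r = 0.966), Clic1 (0.949), Tspo (0.943), Lox (0.943) and Arsg (0.943). Most like Vgll3 were Fgf7 (r = 0.923), Ldlrad4 (0.922), Igfbp2 (0.902), Ndnf (0.897) and Rock2 (0.896). Most like Bdnf were Sh3pxd2b and Olfml3 (both 0.968), Glis3 (0.954), Tnc (0.952) and Synpo (0.949). Without the pair of libraries farthest from the median of each gene, these r were 0.727 to 0.867 for Ctla2a. They were 0.805 to 0.907 for Vgll3 and 0.918 to 0.967 for Bdnf.

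Ctla2b repeated the bulk pattern of Ctla2a at its own level, with 33.4 CPM in KO colon t4, 28.4 CPM in KO jejunum m1 and 0.506 to 5.55 CPM elsewhere. Its log2 fold change was 2.56 in colon (standard error 1.06, edgeR adjusted p = 0.304) and 3.27 in jejunum (standard error 1.1, edgeR adjusted p = 0.242). The longest coding transcripts of the pair were 84.3% identical, and 7.1% of the 50-base windows of Ctla2a transcripts also occurred in a Ctla2b transcript, so reads could be split between them or dropped. Both genes overlap read-through gene models of the GENCODE M21 annotation, and a Bdnf start overlaps the antisense gene Gm45346. The gene model Gm49391, with an exon at a Ctla2a start, lies on the same strand, so counting by strand would not separate their reads. The sources used here do not say whether counting used strand, so reads of Bdnf and Gm45346 cannot be told apart either.

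In the colon nuclei, 2672 of 3476 WT barcodes and 1742 of 2164 KO barcodes had at least 500 unique molecular identifiers (UMIs), with medians of 1690 and 1982 UMIs. The libraries shared 5 of these barcodes. Nuclei were clustered without the 3 genes and Ctla2b. Of the clusters, 4 were named smooth muscle-like from a list of 10 markers, with 887 WT and 424 KO nuclei: cluster 7 (479 WT and 113 KO, led by Colec10, Nek10 and Pln), cluster 16 (237 and 209, led by Igfbp2, Fgf7, Fn1 and Postn), cluster 1 (48 and 79, led by Chrdl2, Lrrc7 and Fbn2, with Ctla2a itself among its leading genes) and cluster 0 (123 and 23, led by Grin3a and Hs3st4). Clusters 0 and 1 are the less certain: neither had a smooth muscle marker among its top 100 genes by fold, where cluster 1 had 2 markers of another list. Cluster 1 had Myh11 at 4960 CPM in WT and 5832 in KO. The mural marker Abcc9 stood there at 872 and 1065 CPM, against 135 and 234 in cluster 7 and 506 and 632 in cluster 16. The other 5 mural markers also had UMIs in cluster 1: Rgs5 stood at 85.1 CPM in WT and 53.4 in KO, Kcnj8 at 31.9 and 96.6, Cspg4 at 26.6 and 80.2, Pdgfrb at 21.3 and 26.7, and Notch3 at 5.32 and 10.3. Rgs5 (110 and 103 CPM) and Cspg4 (90.4 and 140) were higher in cluster 7, and Kcnj8, Pdgfrb and Notch3 were lower there. Whether cluster 1 holds mural cells was not tested. With 1 library per genotype no test is possible, and the intervals that follow are 95% intervals that cover counting error only.

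Levels are given as CPM, that is, scaled to the summed UMIs of the same nuclei. Over all 4 clusters Ctla2a had 7 UMIs in WT (3.03 CPM, interval 1.22 to 6.25) and 317 in KO (218 CPM, 195 to 244), a ratio of 72.0 (34.5 to 180). Vgll3 had 17 UMIs in WT (7.37 CPM, 4.29 to 11.8) and 121 in KO (83.3 CPM, 69.1 to 99.6), a ratio of 11.3 (6.78 to 20.1). Bdnf had 15 UMIs in WT (6.5 CPM, 3.64 to 10.7) and 115 in KO (79.2 CPM, 65.4 to 95.1), a ratio of 12.2 (7.09 to 22.5). These values chose the genes: by ratio they ranked 3rd, 22nd and 20th of 10074 genes with at least 20 UMIs over both genotypes. A ratio of at least 2 was reached by 7.24% of those genes. Under a stricter naming rule, added after the values had been seen, only clusters 7 and 16 stayed in the class, and the ratios were 30.4 for Ctla2a, 13.3 for Vgll3 and 12.5 for Bdnf. The Ctla2a ratio then rested on 3 WT and 46 KO UMIs.

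In KO the genes differed in the cluster that held most of their UMIs in the class. Ctla2a lay mainly in cluster 1, which held 269 of the 317 KO UMIs of the class. There it went from 4 UMIs in WT (21.3 CPM, 5.79 to 54.4) to 269 in KO (553 CPM, 489 to 623), a ratio of 26.0 (10.0 to 96.1). In KO cluster 1, 56 of 79 nuclei had a UMI (70.9%, exact interval 59.6% to 80.6%), against 4 of 48 in WT (8.33%, 2.32% to 20%), at median depths of 4530 and 3537.5 UMIs. Thinned to 500 UMIs per nucleus, these shares were 25.6% and 1.42%. In KO, 34 of the 79 nuclei had 3 or more Ctla2a UMIs, the highest 22, whereas no WT nucleus of the class had more than 1.

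Among the KO smooth muscle-like nuclei, Vgll3 and Bdnf had most of their UMIs in cluster 16, 85 of 121 and 61 of 115. In WT, cluster 7 held more of them than cluster 16, 8 against 6 for Vgll3 and 7 against 5 for Bdnf. Vgll3 had 6 UMIs in WT (15.9 CPM, 5.83 to 34.6) and 85 in KO (147 CPM, 117 to 181) there, a ratio of 9.24 (4.07 to 25.9). Bdnf had 5 UMIs in WT (13.2 CPM, 4.3 to 30.9) and 61 in KO (105 CPM, 80.5 to 135), a ratio of 7.95 (3.23 to 25.4). In cluster 1 Vgll3 went from 2 to 27 UMIs, a ratio of 5.22 (1.31 to 45.3), and Bdnf from 2 to 39, a ratio of 7.54 (1.95 to 64.5). Cluster 7, the largest in WT, had lower KO levels, 28.0 CPM for Vgll3 and 46.7 for Bdnf, with ratios of 4.93 (1.69 to 14.7) and 9.38 (3.6 to 27.2).

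**Figure D3:**
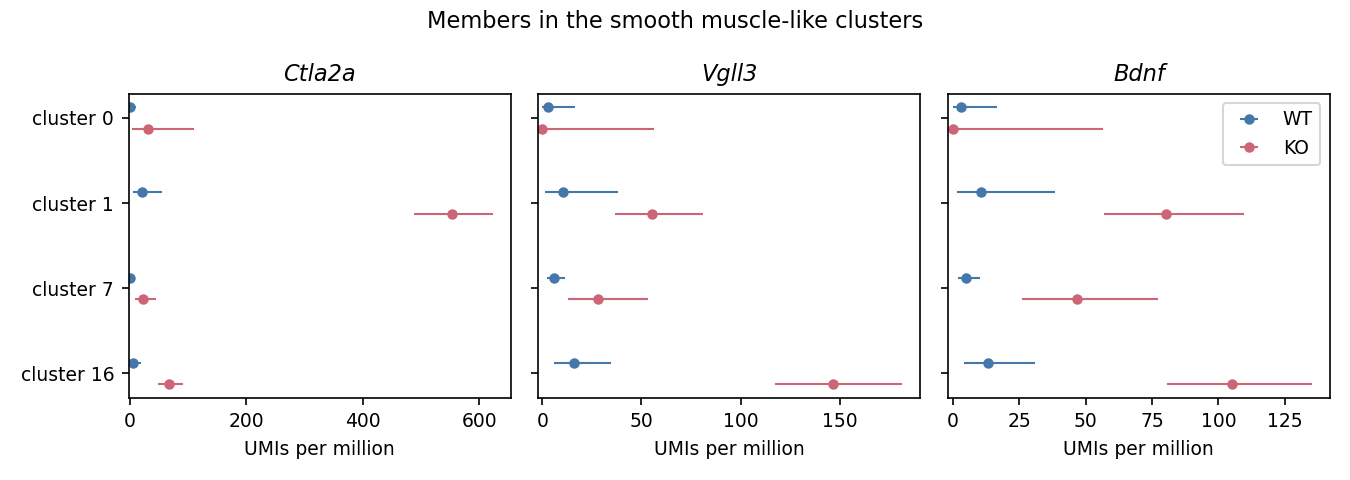
CPM of each gene in the 4 smooth muscle-like clusters, WT and KO, with 95% Poisson intervals for counting error. Ctla2a stands at 553 CPM in KO cluster 1, and Vgll3 and Bdnf are highest in KO cluster 16, at 147 and 105 CPM.

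Cluster makeup differed between the libraries: cluster 7 held 54.0% of the WT class and 26.7% of the KO class, cluster 16 held 26.7% and 49.3%, and cluster 1 held 5.41% and 18.6%. The class ratio therefore holds both the makeup and the level within a cluster. For each of the 3 genes the ratio within a cluster was below the class ratio in clusters 1, 7 and 16. Cluster 0 had 2 UMIs of Ctla2a in KO and 1 UMI each of Vgll3 and Bdnf in WT, too few for a comparison.

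Most nuclei of cluster 16 had no UMI of Vgll3 or Bdnf. In KO cluster 16, Vgll3 was seen in 33 of 209 nuclei (15.8%, 11.1% to 21.5%) and Bdnf in 20 (9.57%, 5.94% to 14.4%), against 5 (2.11%) and 4 (1.69%) of 237 in WT, at median depths of 1901 and 1116 UMIs. Thinned to 500 UMIs these shares were 4.53% and 2.49% in KO and 1.02% and 0.552% in WT. A few nuclei carried much of the signal: the 10 highest held 65.9% of the Vgll3 and 83.6% of the Bdnf UMIs of KO cluster 16, with 11 and 19 UMIs in the single highest nucleus.

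**Figure D4:**
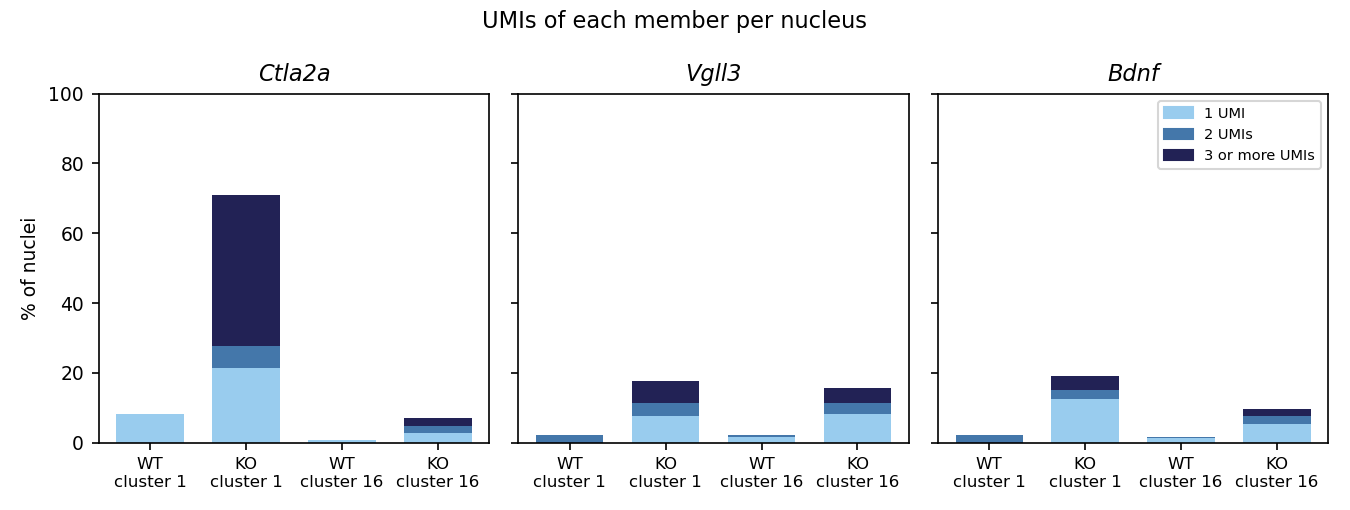
Percent of nuclei with 1, 2 and 3 or more UMIs of each gene in clusters 1 and 16, by genotype. In KO cluster 1, 70.9% of nuclei had a Ctla2a UMI. No other bar reaches 20%.

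At least 1 of the 3 genes was seen in 126 of 424 KO and 34 of 887 WT smooth muscle-like nuclei, and all 3 in 9 KO and 0 WT nuclei. Vgll3 and Bdnf were seen together in 18 KO nuclei, where 4.81 would be the count for unrelated detection at these shares. The corresponding counts were 17 and 9.5 for Ctla2a with Vgll3, and 18 and 7.45 for Ctla2a with Bdnf. Nuclei with both genes were deep, with medians of 5753.5 to 6644.5 UMIs against 2329.5 in the class, and deep nuclei show more of any gene. Within KO cluster 1, Ctla2a met Vgll3 in 11 nuclei (9.92 if unrelated) and Bdnf in 13 (10.6 if unrelated), and Vgll3 met Bdnf in 6 (2.66 if unrelated). Within KO cluster 16, Vgll3 met Bdnf in 12 (3.16 if unrelated). Ctla2a met Vgll3 there in 6 (2.37 if unrelated) and Bdnf in 3 (1.44 if unrelated).

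Outside smooth muscle, Ctla2a was seen in all 10 other named classes of the KO library, at 10.1 to 154 CPM. KO epithelial-like nuclei, which are no known source of it here, held 28.9 CPM of Ctla2a (12.5 to 57.0), with a UMI in 3.6% of nuclei at a median of 1361 UMIs. KO enteric neuron-like, mesothelial-like and fibroblast-like nuclei held 25.4, 48.5 and 69.2 CPM. KO macrophage-like nuclei held 60.7 CPM on 17 UMIs, 11 of them in 1 nucleus. KO T and B lymphocyte-like nuclei held 154 CPM on 18 UMIs, 8 of them in 1 nucleus. Against the epithelial-like level as background, KO clusters 7 (21.8 CPM) and 0 (30.7) did not stand out, cluster 16 (67.3, 47.9 to 92.0) had an interval that overlapped it, and cluster 1 lay far above it. How much of the low level came from free RNA in the droplets was not tested. The WT nuclei of these 6 classes held 0 or 1 Ctla2a UMIs each, and 0 of 366 WT epithelial-like nuclei allows a share of nuclei with a UMI of up to 0.82% at their median of 1440 UMIs (3 nuclei of the total, for counting error only). Blood endothelial-like nuclei held 96.2 CPM in KO on 10 UMIs and 21.7 CPM in WT on 1 UMI. Lymphatic endothelial-like nuclei held 84.1 CPM in KO on 6 UMIs and 0 UMIs in WT.

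Vgll3 was present in other classes in both genotypes. Enteric glia-like nuclei held 43.2 CPM in WT (32.6 to 56.1) and 62.6 in KO (44.1 to 86.3), a ratio of 1.45 (0.93 to 2.23), and mesothelial-like nuclei held 43.1 and 63.1, a ratio of 1.47 (0.909 to 2.44). Both intervals hold 1. Fibroblast-like nuclei held 19.7 CPM in WT on 5 UMIs and 117 in KO on 64 UMIs, a ratio of 5.92 (2.41 to 18.8). Epithelial-like nuclei, taken as background, held 7.31 CPM in WT and 7.23 in KO, close to the WT smooth muscle-like level of 7.37.

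Bdnf had few UMIs in most other classes. Beyond smooth muscle, only mesothelial-like nuclei had more than 6 KO UMIs among the named classes, with 5 UMIs in WT (8.97 CPM) and 43 in KO (39.3 CPM), a ratio of 4.38 (1.74 to 14.2). Enteric neuron-like nuclei held 2 UMIs in WT and 3 in KO, although they were the deepest class, with medians of 4891 and 9395 UMIs. Enteric glia-like nuclei held 2 UMIs in WT and 0 in KO. In KO, smooth muscle-like nuclei held 57.8% of all 199 Bdnf UMIs, 53.3% of 595 Ctla2a UMIs and 28.5% of 425 Vgll3 UMIs. They were 424 of the 1742 KO nuclei.

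**Figure D5:**
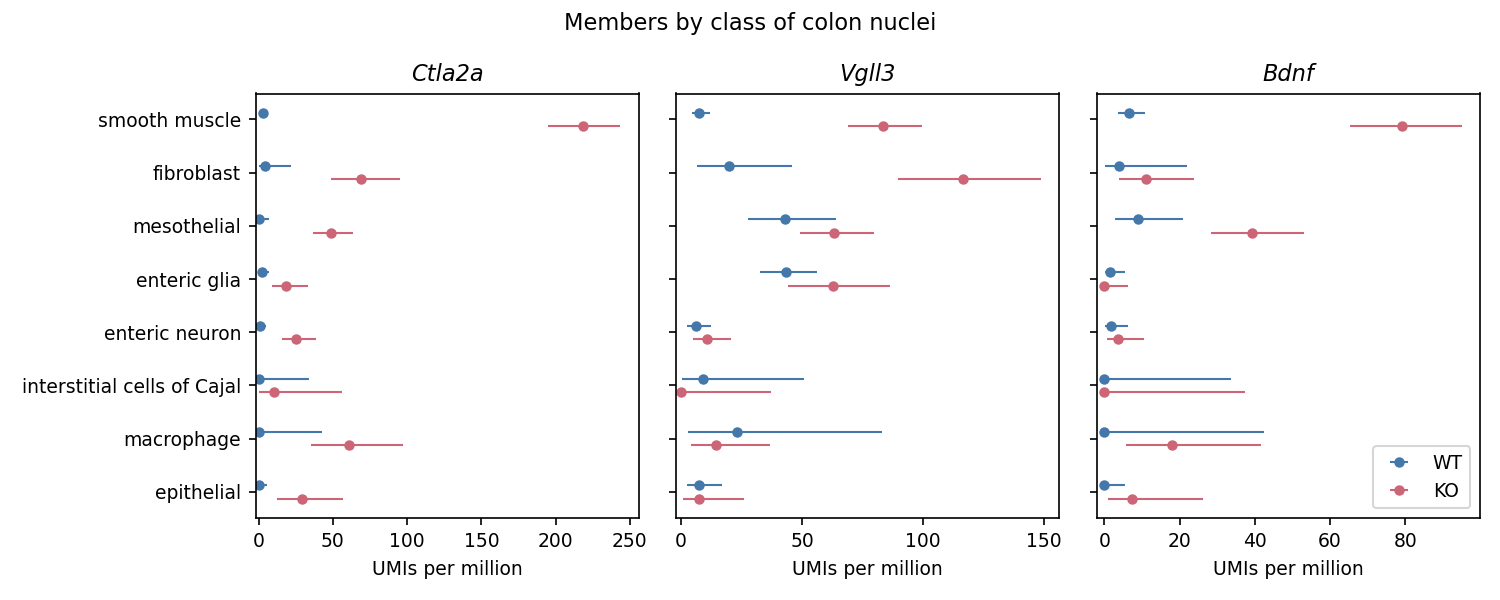
CPM of each gene in 8 classes of colon nuclei, WT and KO, with 95% Poisson intervals for counting error. Smooth muscle-like KO nuclei stand at 218 CPM for Ctla2a, 83.3 for Vgll3 and 79.2 for Bdnf, and Vgll3 is present in glia and mesothelium of both genotypes.

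Unnamed cluster 14, with very deep nuclei (medians of 7820 UMIs in WT and 13628.5 in KO) led by Mgat4c and Spata2l, had 4 Ctla2a UMIs in WT and 90 in KO. It had 61 and 107 UMIs of Vgll3, in KO more than cluster 16, and 5 and 20 of Bdnf. Of the KO Ctla2a UMIs there, 38 were in a single nucleus. Ctla2b was too sparse to follow by cluster, with 5 UMIs in WT and 24 in KO over the smooth muscle-like class, a ratio of 7.63 (2.85 to 25.6).

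The nuclei matrices also count chromatin accessibility in regions called separately per library, 35003 in WT and 26493 in KO. A region listed by 1 library has no count in the other. Over all RefSeq start sites, 35.0% lay in a WT region and 29.5% in a KO region. Most region counts came in pairs, since only 11.6% (WT) and 11.5% (KO) of the values were odd, so intervals over counts are too narrow. Region counts are given as CPM of the counts in regions that overlap between the lists.

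The Vgll3 start lay in a region of both libraries, chr16:65814743-65815735 in WT and chr16:65814804-65815784 in KO, which covers the TEAD core printed above. In smooth muscle-like nuclei it held 35 counts in WT (71.0 CPM, 49.4 to 98.7) and 46 in KO (139 CPM, 102 to 186), and 20 of 887 WT nuclei (2.25%) against 24 of 424 KO nuclei (5.66%) had a count. In cluster 16 the values were 96.8 CPM in WT (46.4 to 178) and 173 in KO (110 to 260). Over all nuclei they were 78.4 and 95.5 CPM. WT alone listed 2 regions further upstream, 20696 and 6395 bases before the start.

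The Ctla2a start lay in a region of the WT list, chr13:60936306-60937260, with 10 counts in 4 of 887 smooth muscle-like nuclei, and in no region of the KO list. The Ctla2b start lay in a region of both, at 62.9 CPM in WT and 69.6 in KO smooth muscle-like nuclei. Of the 7 Bdnf starts, that at chr2:109677032 lay in a WT region, chr2:109676995-109677862, with 3 counts in smooth muscle-like nuclei, and none lay in a KO region. Within the Bdnf gene body, WT listed 1 further region, chr2:109693276-109694291, and KO listed chr2:109723138-109724129, which had 0 counts in the 424 KO smooth muscle-like nuclei. WT also listed 1 region beyond the gene's end, and KO listed 1 near Ctla2b, with 0 counts in smooth muscle-like nuclei. A region missing from a list was not measured in that library, so no difference is read from it.

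The other genes of the 3 pathways were followed in bulk, where none passed the edgeR threshold in either tissue, against 0.388% of all genes in colon and 0.215% in jejunum. Of the other neurotrophins, Ntf3 had log2 fold changes of 0.23 (colon, adjusted p = 0.911) and -1.47 (jejunum, adjusted p = 0.329). Those of Ntf5 were -0.16 (adjusted p = 0.962) and -0.43 (adjusted p = 0.869). The median over the 8 receptors was 0.00 in colon and -0.39 in jejunum, against 0.00 and 0.02 over all genes. Among them the lowest in colon was Sort1, the sorting receptor sortilin, at -0.60 (adjusted p = 0.398). The median over 10 tested genes of precursor and plasminogen processing was 0.52 in colon and 0.61 in jejunum. Mmp7, a matrix metalloproteinase, had the lowest value of that list in colon, -2.05 (adjusted p = 0.569), near the floor at means of 0.0627 CPM in KO and 0.284 CPM in WT. Of 14 transcription factors and coactivators that act on Bdnf, Crtc2, a CREB coactivator, was highest in colon at 0.70 (adjusted p = 0.264) and Npas4, an activity-induced factor, lowest at -1.29 (adjusted p = 0.233).

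In smooth muscle-like nuclei, where these ratios are descriptions, Ntrk3, the NT-3 receptor, was lower in KO, with 41 UMIs in WT and 9 in KO (ratio 0.349, 0.149 to 0.729). Ntrk2, the receptor of BDNF, had 0 and 1 UMIs. Sorcs2, a receptor of the sortilin family, was higher (ratio 2.71, 2.02 to 3.66). Sorcs1 (0.207, 0.0723 to 0.487) and Sort1 (0.694, 0.556 to 0.863) of that family were lower. The proprotein convertase Pcsk5 was higher (3.72, 2.78 to 5.01), whereas Pcsk7 stood at 1.08 (0.824 to 1.4) and Furin at 1.7 (0.998 to 2.89). Of the 14 Bdnf regulators, 0 had a ratio of at least 2 in either direction. These genes, and those of the next paragraph given for nuclei, were picked after their values were seen.

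Around Vgll3, no member of the family or its partners passed the test in bulk. Vgll1 and Vgll2 were too low to test, and Vgll4, which also binds TEAD, had log2 fold changes of -0.20 in colon (edgeR adjusted p = 0.735) and -0.34 in jejunum (0.54). Of the 6 TEAD factors and coactivators, Tead2 was highest in colon at 0.47 (adjusted p = 0.41) and Yap1 lowest at -0.13 (0.781). In jejunum Tead2 had the opposite sign, -0.84 (standard error 0.244, adjusted p = 0.183). Of 12 Hippo kinases and scaffolds, Amotl2, an angiomotin, was highest in colon at 0.43 (0.564) and Mob1b, a Lats activator, lowest at -0.78 (0.0831). Of 22 tested YAP and TEAD targets, 13 were higher and 9 lower in colon, with a median of 0.15, and 14 and 8 in jejunum, with a median of 0.46. Ccn2, a matricellular target, was highest in colon at 2.77 (standard error 0.649, adjusted p = 0.111), and Tgfb2, a TGF-beta ligand, lowest at -0.58 (0.398). In smooth muscle-like nuclei 8 of the 17 targets with at least 20 UMIs had a ratio of at least 2 and 1 a ratio of 0.5 or less, against 7.24% and 4.9% of all such genes. The 20 UMIs were summed over both genotypes, for targets and for all genes, so a gene high in KO alone could enter. Ankrd1, 1 of the 8, had 1 UMI in WT and 98 in KO. These shares are a description, and no conclusion about the targets is drawn from them. Ccn2 had a ratio of 6.77 (5.41 to 8.55), Ccn1 of 3.06 (2.55 to 3.69) and Axl of 3.6 (2.64 to 4.94) there. Foxf2 was the target at 0.5 or less, at 0.448 (0.207 to 0.892), and Ptpn14 stood at 0.728 (0.62 to 0.853). Tgfb2, lowest in bulk colon, had a ratio of 2.48 (2.03 to 3.03) in these nuclei. Axl had a log2 fold change of 0.30 in bulk colon (edgeR adjusted p = 0.688). Tead1, at 1.43 (1.3 to 1.58), and Yap1, at 1.02 (0.871 to 1.2), were nearer 1 in nuclei.

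Around Ctla2a, the cathepsins that its protein resembles in their propeptides had a median of 0.16 in colon and 0.62 in jejunum over 10 genes. Ctsk, a collagen-degrading cathepsin, was highest in colon at 0.84 (edgeR adjusted p = 0.319), and Ctsw lowest at -0.33 (0.704). Ctsl, whose product is the best known target of CTLA-2 alpha, had values of 0.79 in colon (0.317) and 0.69 in jejunum (0.415). The cystatin family includes further inhibitors of cathepsins. Of its listed genes, Cstb was highest in colon at 0.81 (0.467) and Fetub lowest at -1.71 (0.389). Fetub was near the floor there, with means of 0.109 CPM in KO and 0.385 CPM in WT.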

How the data were processed

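The bulk table, deposited by the authors, holds raw counts per gene for 12 libraries, and 2 nuclei matrices were used with it. STAR 2.0.4b, featureCounts 1.4.5, edgeR and Cell Ranger, with GRCm38 and mm10, are named in the submitters' processing notes. Of 40757 entries, 276 repeats were dropped. Nuclei matrices hold counts made by Cell Ranger ARC, per the file headers. All their gene values were even and were divided by 2 to give UMIs. That the deposited values are doubled is an inference from the values.

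For bulk libraries, edgeR 4.0.16 (R 4.3.3) was run with TMM, filterByExpr and a robust quasi-likelihood fit of 1 mean per group, with Benjamini-Hochberg adjustment over 20886 genes. Standard errors are the fold change divided by the root of F. The labels do not say whether replicates are separate animals, so p-values measure only the spread between these libraries. Nuclei were clustered with scanpy 1.11.5 (2000 variable genes, 30 components, Leiden resolution 1). Scrublet marked 2 and 1 nuclei as doublets, too few to have worked, and the 5% with the highest scores were left out as an alternative.

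The 3 genes and all gene lists were chosen with earlier results of these data known. Cluster names went through 3 versions of the naming rule, and both later versions were written after the genes' UMIs by cluster had been seen. The first and last give the same smooth muscle-like class. The second is the stricter rule, given beside it. Genes named from the lists are the highest and lowest in colon and all members of lists of 4 or fewer, except a few that are not reported here. Ctsl was added after its values were seen. Scripts were tested on simulated data. Alternatives were other scalings, filters, DESeq2 1.42.0, limma 3.58.1 voom, libraries left out, and other nuclei filters and clusterings.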

Additional observations from a re-analysis of the deposited data

How the results depend on the processing

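None of the 3 genes passed in colon or jejunum in any edgeR or limma setting. DESeq2 called Ctla2a in colon (4.35) and jejunum (4.41), Bdnf in jejunum (3.07), and Bdnf in WT between tissues (-3.04). Leaving out each library in turn, Ctla2a ranged from 2.19 to 4.83 in colon and 1.04 to 5.03 in jejunum, Bdnf from 0.61 to 2.14 and 1.34 to 3.51, and Vgll3 from -0.38 to 0.46 and -0.39 to 0.34. Between WT tissues these ranges were -0.85 to 0.16 for Ctla2a, -1.31 to -0.75 for Vgll3 and -3.38 to -2.42 for Bdnf, which passed without KO jejunum m1 (-3.01, adjusted p = 0.0485). For the colon change minus the jejunum change they were -2.20 to 3.32 (Ctla2a), -0.51 to 0.50 (Vgll3) and -2.44 to 0.22 (Bdnf). Without KO colon t4 and KO jejunum m1, chosen after seeing the data, Vgll3 was -0.37 in colon and -0.38 in jejunum, the difference between tissues was 1.17 for Ctla2a and 0.0158 for Vgll3, and between WT tissues Vgll3 (-1.10) and Bdnf (-3.01) passed. That difference also turned sign for Ctla2a with total counts (0.15) and voom (0.62), and for Vgll3 with total counts (0.0878), voom (0.10) and no filter (0.0031), and Vgll3 in jejunum did with voom (-0.0579). Same-tag libraries deviated together with r of -0.163 to 0.188. The labels do not say what the tags mark, so the block is given only as an alternative. With the tag as a replicate block Ctla2a was 2.13 in colon (adjusted p = 0.687) and 0.68 in jejunum (0.986), Bdnf 0.87 (0.819) and 1.49 (0.927), Vgll3 was -0.11 in colon and -0.20 in jejunum, the differences were 1.44 (Ctla2a) and 0.0925 (Vgll3), and the block left 0 genes called in each tissue with edgeR (2201 and 1262 at an unadjusted p below 0.05). All genes called, 81 in colon and 45 in jejunum, became 960 and 805 with DESeq2, 309 and 145 without both libraries, and 0 and 21 with libraries of that tissue only (2270 at an unadjusted p below 0.05 in colon). In jejunum total counts gave 26 and voom 76. Leaving out 1 library gave 7 to 180 in colon and 2 to 172 in jejunum. On the log2 scale, Ctla2a fell from 4.32 to 2.21 in colon and from 4.39 to 1.04 in jejunum without the highest KO library of each tissue. The cause of these changes was not tested. In nuclei, the Ctla2a ratio was 30.4 under the stricter names, and the Vgll3 ratio was 4.73 at Leiden resolution 0.5, where the class had 138 KO nuclei. For Ctla2a it was 35.1 without cluster 1, 41.2 without cluster 7, 123 without cluster 16, 38.3 at resolution 0.5 and 45.0 with each nucleus weighted equally. For Vgll3 it was 7.24 without cluster 16, and for Bdnf 7.98 at resolution 0.5 and 7.25 with nuclei weighted equally. At resolution 0.5 a cluster of 289 WT and 298 KO nuclei went unnamed and left the class. It was led by genes of clusters 1 and 16 (Chrdl2, Fbn2, Igfbp2 and Postn), with Ctla2a among them. The ratios at that resolution therefore leave out those nuclei. Few UMIs limit every WT level: 7, 17 and 15 in the class.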
